A study of Mus musculus with 12 samples.

Results

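A set of genes that the tumor suppressor p53 switches on was followed across livers and liver tumors of mice lacking the atypical E2F repressors E2F7 and E2F8. The genes are Cdkn1a, Mdm2, Ccng1, Btg2, Trp53inp1, Tnfrsf10b, Gdf15, Phlda3, Zmat3 and Bax. They were chosen by name as known p53 targets, by a rule that uses no measured value, although earlier results of these data were known, and are 10 of the 19012 gene symbols measured. Polyadenylated RNA was sequenced from 4 wild-type livers, 4 livers of E2F7/8 DKO (double knockout) mice and 4 liver tumors of E2F7/8 DKO mice. The labels give no strain, age, sex or treatment, nor how and in which cells E2F7 and E2F8 were deleted. An animal code links each DKO tumor to the DKO liver with its number, so that both come from 1 animal, and the wild-type livers carry 4 other codes. By these codes the DKO livers are tissue from tumor-bearing animals. Expression is given as RPKM, reads per kilobase of exon, scaled per M (mega) of library reads.

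All gene positions given with the values are on mm9, from transcript start to end as the deposited data list them, both ends included, and whether they are counted from 0 or 1 is not stated. No other gene listed in the data overlaps any of the 10.

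The p53 protein is a transcription factor that accumulates when DNA damage, oncogene activity or other stress frees it from its inhibitor MDM2. It binds DNA at paired decameric half-sites and activates genes that arrest the cell cycle, repair DNA, promote cell death or feed back on p53 itself. In liver, the p53 target Cdkn1a restrains hepatocyte division after injury. E2F7 and E2F8 repress cell-cycle genes and take part in hepatocyte polyploidization, and the E2F7 gene is itself a p53 target. Most of the 10 genes also answer to other stress pathways.

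RefSeq promoter windows on the mouse build GRCm38.p6 were found for 7 of the 10 genes, 9 windows in all. Trp53inp1, Tnfrsf10b and Zmat3 had no entry. The 250 bases before the start are shown for the 2 Cdkn1a starts, for Ccng1 and for Btg2, because Cdkn1a and Ccng1 hold the closest paired p53 sites among the windows and Cdkn1a and Btg2 rose in tumors. Capitals mark p53 half-site matches and the whole of a paired site with 1 mismatch (the mismatched half-site included), or, in Btg2, the cyclic AMP response element TGACGTCA. Each sequence reads 5′ to 3′ toward the start.
Cdkn1a upstream start, chr17:29090729-29090978, plus strand: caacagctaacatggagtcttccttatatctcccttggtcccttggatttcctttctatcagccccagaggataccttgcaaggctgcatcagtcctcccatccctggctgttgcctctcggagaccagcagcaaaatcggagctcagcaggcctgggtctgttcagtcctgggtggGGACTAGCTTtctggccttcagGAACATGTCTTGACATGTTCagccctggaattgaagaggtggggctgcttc
Cdkn1a downstream start, chr17:29093519-29093768, plus strand: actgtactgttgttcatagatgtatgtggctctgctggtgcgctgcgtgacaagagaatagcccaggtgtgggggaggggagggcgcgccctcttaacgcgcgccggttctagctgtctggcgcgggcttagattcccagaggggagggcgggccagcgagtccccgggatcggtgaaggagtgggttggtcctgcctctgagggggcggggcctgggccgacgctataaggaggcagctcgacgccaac
Ccng1, chr11:40755287-40755536, minus strand: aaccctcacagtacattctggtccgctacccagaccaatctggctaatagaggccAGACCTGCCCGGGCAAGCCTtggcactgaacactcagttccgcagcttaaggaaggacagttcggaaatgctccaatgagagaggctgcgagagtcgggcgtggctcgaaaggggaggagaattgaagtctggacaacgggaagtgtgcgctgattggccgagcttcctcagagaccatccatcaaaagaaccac
Btg2, chr1:134079156-134079405, minus strand: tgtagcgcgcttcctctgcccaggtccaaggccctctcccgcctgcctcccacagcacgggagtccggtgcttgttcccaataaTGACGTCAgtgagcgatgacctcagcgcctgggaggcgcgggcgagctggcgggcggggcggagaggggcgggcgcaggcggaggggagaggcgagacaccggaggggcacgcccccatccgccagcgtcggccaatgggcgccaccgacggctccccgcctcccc

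The upstream Cdkn1a window held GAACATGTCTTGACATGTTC at positions -51 to -32 from the start, which is 1 mismatch from 2 adjacent p53 half-sites. A further half-site, GGACTAGCTT, lay at -73 to -64. The Ccng1 window held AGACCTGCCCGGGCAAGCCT at -195 to -176, also 1 mismatch from the paired site. Of 32851 mouse windows of the same length, 25 (0.0761%) held a pair with at most 1 mismatch. A single half-site, searched on both strands, was found in 7.13% of windows, and in both paired matches a half-site overlapped the pair. Mdm2 held the single half-site GAACTTGCCT at -186 to -177, and Bax held AGGCAAGCTT at -201 to -192. The downstream Cdkn1a window, Btg2, both Gdf15 windows and Phlda3 held none. TGACGTCA lay at -166 to -159 in Btg2, and 1.55% of all windows hold it. The E2F motifs TTTCCCGC (0.895% of windows) and TTTGGCGC (0.417%), the AP-1 motif TGANTCA (6.75%) and the CArG box (1.47%), all searched on both strands, had no match in the 9 windows. These are matches of letters in short windows, and p53 can also bind farther away or within introns.

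Library depth ranged from 7.985 to 15.956 M reads, so that 1 read in 2 kb of exon was worth 0.0313 to 0.0626 RPKM. Reads carry no molecular identifiers, and depth gives counting error only. Hepatocyte marker genes were abundant in every library, with sums of 52500 to 76700 RPKM (wild-type livers), 45700 to 118000 (DKO livers) and 74100 to 133000 (tumors). E2f7 was low throughout, at 0.103 to 0.2 RPKM (wild-type livers), 0.211 to 0.4 (DKO livers) and 0.0365 to 0.259 (tumors). E2f8 was 1.66 to 4.3, 2.8 to 20.8 and 1.66 to 12.2 RPKM in the same order. Which part of either gene was deleted is not stated, and these levels do not check the genotype. Each library name carries 1 of 2 tags. L02 is on the 4 DKO livers and on wild-type livers 1 and 2, and L03 is on the 4 tumors and on wild-type livers 3 and 4. What the tag stands for is not stated. Tag and tissue cannot be told apart between tumors and DKO livers.

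DKO animal 3 stood apart in both of its libraries. Its liver had the highest summed neutrophil markers of the DKO livers, 113 RPKM against 8.12 to 35.5 in the other 3, and the highest cholangiocyte markers, 178 against 35.4 to 53.5. Its stellate cell and fibroblast markers summed to 389 RPKM against 124 to 279, and its lymphocyte markers to 25.0 against 8.64 to 14.6. Its macrophage markers, at 511 RPKM, lay within the 231 to 675 of the other 3. Its tumor had cholangiocyte markers of 127 RPKM against 22.7 to 43.3 in the other tumors, stellate and fibroblast markers of 281 against 68.0 to 77.2, and macrophage markers of 295 against 86.9 to 98.9. Most of both cholangiocyte sums was 1 gene, Spp1, with 154 RPKM in DKO liver 3 and 103 in tumor 3. Spp1 had 23.2 to 39.9 RPKM in the other DKO livers and 12.1 to 28.8 in the other tumors. Most of both stellate and fibroblast sums was also 1 gene, Dcn, with 224 RPKM in DKO liver 3 and 170 in tumor 3. Dcn had 57.6 to 174 RPKM in the other DKO livers and 32.9 to 46.7 in the other tumors. Between groups, macrophage markers summed to 133 to 331 RPKM (wild-type livers), 231 to 675 (DKO livers) and 86.9 to 295 (tumors), and 10 of 10 had a negative log2 difference between tumors and DKO livers. So did 10 of 10 stellate cell and fibroblast markers, 9 of 9 lymphocyte markers and 4 of 4 neutrophil markers tested, beside 62.8% of all genes. Endothelial markers summed to 55.4 to 84.1, 84.8 to 137 and 46.0 to 118 RPKM in the same order. Of 60 genes tested from the 7 cell type marker lists, limma called 0 in each comparison. At an unadjusted p below 0.05 there were 9 in tumors against wild type, 14 in DKO livers against wild type and 21 in tumors against DKO livers, and voom called 0. Over all genes tested, 19.2%, 12.4% and 16.1% reached an unadjusted p below 0.05 in these comparisons. The part of other cell types in the results that follow was not tested, apart from the values without animal 3. In these bulk samples, fewer cells of a type and less RNA per cell cannot be told apart. The main results for the 10 p53 target genes are therefore given with and without DKO animal 3. Those of the other gene lists are given with animal 3 only.

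Differences between groups were tested with limma on log2(RPKM + 1), with p-values adjusted by the Benjamini-Hochberg method over all 11351 genes that reached 0.5 RPKM in at least 4 libraries. A gene is said to rise or fall only at an adjusted p below 0.05. All 10 p53 target genes passed this expression filter. Tnfrsf10b reached 0.5 RPKM in the 4 tumors, in wild-type liver 2 and in DKO liver 3 only, so without the tumors it would not have been tested. A gene that enters in this way had to be higher in tumors, and its place in a count of genes that rose is no support for that count. The 3 comparisons share groups and are not independent.

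In tumors against wild-type livers, 3 of the 10 genes rose: Btg2, Cdkn1a and Tnfrsf10b. None fell. Of all genes tested, 1.23% rose and 0.67% fell, 1.9% in either direction. The same 3 were the members whose tumor and wild-type values did not overlap, and 5.57% of all genes tested were higher in tumors without overlap. The median difference of the 10 genes was 0.44 on the log2 scale, beside -0.02 over all genes tested, and 8 of the 10 differences were positive, beside 47.1% of all genes. Without animal 3 the median was 0.29, beside -0.08 over all genes, and 6 of the 10 were positive. The other 7 genes overlapped between tumors and wild-type livers. Without a filter on low genes, or with voom on the recovered reads, Btg2 alone of the 10 passed, and without DKO animals 1 and 2 none did.

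**Figure D1:**
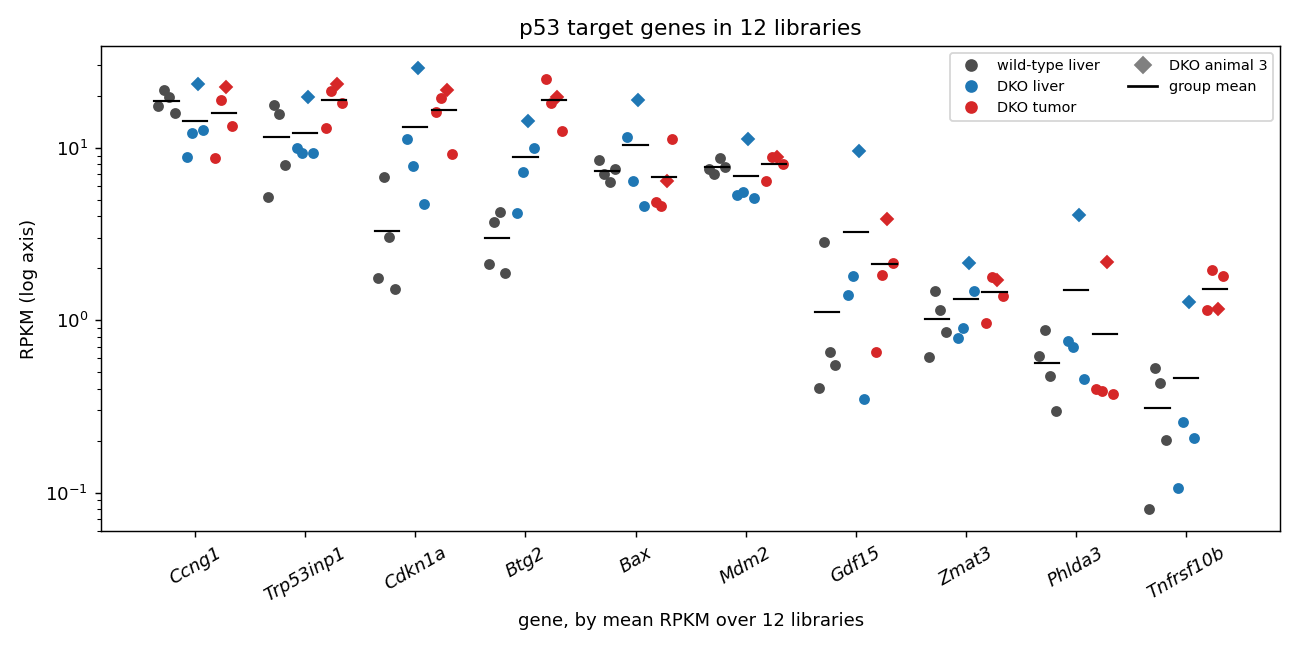
Expression of the 10 p53 target genes in each library, in RPKM on a log axis. Points are libraries of wild-type liver (grey), DKO liver (blue) and DKO tumor (red), 4 each, with diamonds for DKO animal 3 and lines at group means. For Btg2, Cdkn1a and Tnfrsf10b every tumor lies above every wild-type liver.

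Of the 3 genes best known for acting on the cell cycle (Cdkn1a, Btg2 and Ccng1), Cdkn1a and Btg2 rose in tumors. Cdkn1a encodes p21, an inhibitor of cyclin-dependent kinases and the best known p53 target (chromosome 17, 29227930 to 29237666, plus strand). Its level was 1.75, 6.77, 3.04 and 1.52 RPKM in wild-type livers 1 to 4. The DKO livers had 11.3, 7.88, 29.0 and 4.73 RPKM, and the tumors 16.2, 19.4, 21.7 and 9.14. Every tumor exceeded every wild-type liver, and 3 of 4 DKO livers did so as well. DKO liver 4, at 4.73, lay within the wild-type range. The wild-type mean was 3.27 ± 2.43 RPKM, the DKO liver mean 13.2 ± 10.9 and the tumor mean 16.6 ± 5.47 (SD, n = 4). In tumors Cdkn1a was 5.08 times its wild-type mean, a log2 difference of 2.13 (SE 0.49, 95% interval 1.08 to 3.19, limma adjusted p = 0.0474). The difference between DKO livers and wild-type livers was 1.61 (0.55 to 2.66) and did not pass (limma adjusted p = 0.291). Between tumors and DKO livers it was 0.53 (-0.53 to 1.58, limma adjusted p = 0.624). The tumor had the higher value in 3 of 4 animals, all but animal 3, where the liver had 29.0 and the tumor 21.7 RPKM.

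Cdkn1a has 2 transcript rows in the data, which start at 29227930 and 29230716 and share their end. The values above are those of the longer row, with 1936 bases of exon against 1910. The row with the downstream start held more reads in 11 of 12 libraries, by up to 28 reads. The 2 rows overlap over most of their length, and reads were not assigned to 1 start or the other. With the shorter row the tumor difference was 2.18 (limma adjusted p = 0.0454).

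Btg2 encodes an antiproliferative cofactor of the CCR4-NOT deadenylase that p53 and growth signals both induce (chromosome 1, 135971441 to 135975731, minus strand). Wild-type livers 1 to 4 had 2.11, 3.70, 4.23 and 1.87 RPKM. DKO livers had 4.18, 7.24, 14.2 and 9.93, and tumors 24.9, 18.2, 19.8 and 12.5. The tumors lay above all wild-type livers, while DKO liver 1 lay just under wild-type liver 3. The means were 2.98 ± 1.16 (wild type), 8.89 ± 4.24 (DKO liver) and 18.9 ± 5.13 (tumor; SD, n = 4). The tumor difference from wild type was 2.33 on the log2 scale (SE 0.31, interval 1.65 to 3.01, limma adjusted p = 0.00524), 6.34 times in mean RPKM. It was the member with the smallest p-value and kept its call in all 12 fits that left out 1 library. DKO livers differed from wild type by 1.25 (0.58 to 1.93, limma adjusted p = 0.24). Tumors differed from DKO livers by 1.08 (0.40 to 1.75, limma adjusted p = 0.143), with the tumor higher in 4 of 4 animals. In animal 1 Btg2 went from 4.18 in liver to 24.9 RPKM in tumor, and in animal 4 from 9.93 to 12.5.

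Ccng1, cyclin G1, binds the PP2A phosphatase and acts on MDM2 (chromosome 11, 40562053 to 40568787, minus strand). It had the highest mean of the 10 genes over the 12 libraries, 16.3 RPKM, but in tumors Trp53inp1, Btg2 and Cdkn1a had higher means. Wild-type livers had 17.5, 21.6, 19.7 and 16.0 RPKM, DKO livers 8.87, 12.2, 23.5 and 12.6, and tumors 8.75, 18.9, 22.4 and 13.3. DKO livers 1, 2 and 4 were under every wild-type liver, and DKO liver 3 was above them all. No difference passed: -0.30 in tumors against wild type (-0.92 to 0.33, limma adjusted p = 0.636), -0.44 in DKO livers against wild type (-1.07 to 0.19, limma adjusted p = 0.528) and 0.14 in tumors against DKO livers (-0.48 to 0.77, limma adjusted p = 0.848).

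The feedback regulator Mdm2, the ubiquitin ligase that degrades p53 (chromosome 10, 117125960 to 117147771, minus strand), was nearly level. It had 7.53, 7.01, 8.73 and 7.78 RPKM in wild-type livers and 6.44, 8.79, 8.83 and 8.02 in tumors. The tumor difference was 0.04 with an interval of -0.41 to 0.48 (limma adjusted p = 0.948). DKO livers 1, 2 and 4 had 5.35, 5.56 and 5.13 RPKM, under all wild-type livers. DKO liver 3 had 11.3 RPKM, above all other libraries. The DKO liver difference of -0.22 (-0.67 to 0.22, limma adjusted p = 0.662) thus averages values on both sides of the wild-type range.

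Among genes of cell death and survival, Tnfrsf10b, which encodes a death receptor for TRAIL, rose (chromosome 14, 70167335 to 70184217, plus strand). It had the lowest mean of the 10 over the 12 libraries, 0.762 RPKM, but in tumors Phlda3 and Zmat3 had lower means. Wild-type livers had 0.0802, 0.525, 0.431 and 0.203 RPKM, from 2, 21, 16 and 9 reads. DKO livers had 0.106, 0.255, 1.27 and 0.207 RPKM, from 4, 8, 49 and 6 reads. Tumors had 1.14, 1.94, 1.16 and 1.81 RPKM, from 57, 77, 52 and 85 reads. All tumors were above all wild-type livers, and only DKO liver 3 among the livers reached the tumor range. The mean was 0.31 ± 0.204 (wild type), 0.461 ± 0.546 (DKO liver) and 1.52 ± 0.42 (tumor; SD, n = 4). The tumor difference was 0.94 on the log2(RPKM + 1) scale (SE 0.22, interval 0.47 to 1.41, limma adjusted p = 0.0472). This scale understates the size of a change of so low a gene, but the call did not hold with a smaller offset. With an offset of 0.1, or a filter of 1 RPKM in 4 libraries, Tnfrsf10b did not pass. It passed in 11 of 26 alternative fits. The ratio of mean RPKM was 4.89. Against DKO livers the tumor difference was 0.83 (0.36 to 1.31, limma adjusted p = 0.107), with the tumor higher in 3 of 4 animals. Without animal 3 it was 1.13 and passed (limma adjusted p = 0.00873), a fit chosen after seeing the data. In that fit Tnfrsf10b reached 0.5 RPKM only in tumors 1, 2 and 4 and in wild-type liver 2. It was tested there only because of the tumors, so this pass is no support for a rise.

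Bax, a pore-forming protein of the mitochondrial outer membrane, had 8.50, 7.01, 6.29 and 7.52 RPKM in wild-type livers (chromosome 7, 52717064 to 52722267, minus strand). DKO livers ranged more widely, with 11.6, 6.42, 19 and 4.59 RPKM, and tumors had 4.83, 4.62, 6.44 and 11.2. Neither DKO tissue lay on 1 side of wild type, and no difference passed (-0.17 in tumors, limma adjusted p = 0.851; 0.29 in DKO livers, limma adjusted p = 0.751). The tumor was lower than the liver in animals 1, 2 and 3 and higher in animal 4.

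Trp53inp1, a stress protein that promotes p53 activity and autophagy (chromosome 4, 11083587 to 11101523, plus strand), had 5.16, 17.6, 15.7 and 7.99 RPKM in wild-type livers. DKO livers had 10, 9.37, 19.7 and 9.36, and tumors 13.0, 21.2, 23.5 and 18.2 RPKM. Tumors 2, 3 and 4 were above every wild-type liver, and the tumor exceeded the liver in 4 of 4 animals. The tumor differences of 0.77 from wild type (0.03 to 1.52, limma adjusted p = 0.247) and 0.64 from DKO liver (-0.10 to 1.39, limma adjusted p = 0.381) did not pass.

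Phlda3, an inhibitor of the survival kinase AKT (chromosome 1, 137662709 to 137665710, plus strand), was at or under 0.88 RPKM in 10 of 12 libraries. The exceptions were DKO liver 3 at 4.06 RPKM (71 reads) and tumor 3 at 2.17 (44 reads), both from animal 3. Elsewhere it had 6 to 16 reads. The tumor was lower than the liver in 4 of 4 animals, with a mean log2 difference of -0.35 (-1.15 to 0.46, limma adjusted p = 0.688). Zmat3, an RNA-binding zinc finger protein (chromosome 3, 32233715 to 32264586, minus strand), had group means of 1.02 ± 0.372, 1.32 ± 0.616 and 1.45 ± 0.372 RPKM (SD, n = 4) in wild-type livers, DKO livers and tumors. Its tumor difference was 0.28 (-0.15 to 0.72, limma adjusted p = 0.485).

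Gdf15, the only secreted product in the group, is a stress cytokine that lowers appetite (chromosome 8, 73153291 to 73155993, minus strand). Its level was 0.405, 2.83, 0.653 and 0.546 RPKM in wild-type livers. DKO livers had 1.39, 1.81, 9.51 and 0.349, and tumors 0.649, 1.83, 3.85 and 2.15. Every group spanned several-fold and all overlapped. The tumor difference was 0.59 (-0.61 to 1.80, limma adjusted p = 0.618), and the DKO liver difference 0.70 (-0.51 to 1.91, limma adjusted p = 0.608).

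**Figure D2:**
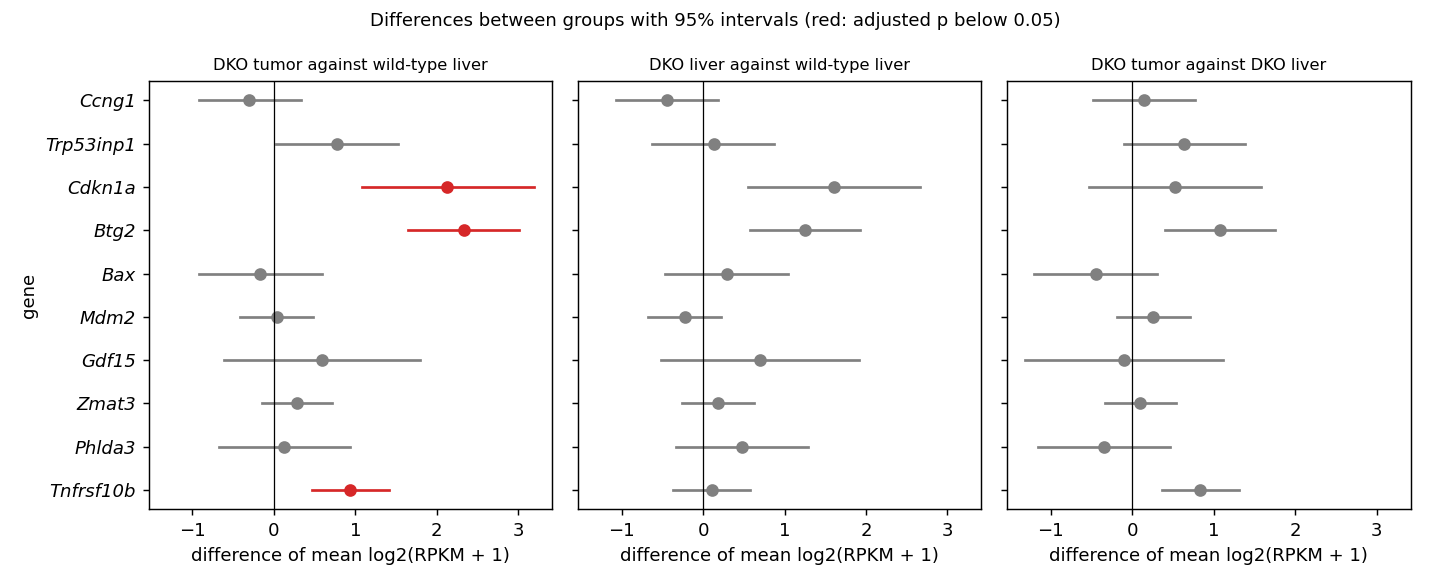
Log2 differences of the 10 genes in the 3 comparisons, on the log2(RPKM + 1) scale with 95% intervals from limma. Btg2 (2.33), Cdkn1a (2.13) and Tnfrsf10b (0.94) in tumors against wild-type livers are the differences that passed. In that comparison the intervals of the other 7 genes include 0, except that of Trp53inp1 (0.03 to 1.52).

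In DKO livers against wild-type livers none of the 10 genes passed with limma, beside 0% of all genes tested. At an unadjusted p below 0.05, limma counted 2 of the 10, Cdkn1a and Btg2, and 1408 of 11351 genes in all. Voom on the recovered reads called 0 of the 10 as well. The median difference of the 10 genes was 0.23, beside 0.08 over all genes, and 8 of 10 were positive, beside 60.5% of all genes. Without animal 3 the median was -0.01, beside 0.0 over all genes, and 5 of the 10 were positive. None of the 10 separated the groups without overlap, beside 7.59% of all genes in either direction and 5.62% higher in DKO livers.

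Tumors and DKO livers come from the same animals, but the fit of all 12 libraries did not pair them. In that fit none of the 10 passed with limma, beside 0.00881% of all genes, which is 1 gene. Btg2 and Tnfrsf10b had an unadjusted p below 0.05 there, as did 1822 genes in all, and voom called 0 of the 10. A limma fit of the 8 libraries that paired tissues by animal also passed none of the 10, beside 70 of 11121 genes. The values that follow are from the fit without pairing. The median difference was 0.20, beside -0.09 over all genes, and 7 of the 10 were positive, beside 37.2% of all genes. Without animal 3 the median was 0.34, beside -0.07 over all genes, and 8 of the 10 were positive. None of the 10 separated tumors from DKO livers without overlap, beside 6.2% of all genes in either direction and 2.12% higher in tumors. Btg2 and Trp53inp1 were higher in the tumor in 4 of 4 animals, and Phlda3 was lower in 4 of 4. The share of all genes with 4 of 4 animals in 1 direction was not counted. By group difference, 62.8% of all genes were lower in tumors. Phlda3 had only 6 to 13 reads in the DKO libraries outside animal 3.

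**Figure D3:**
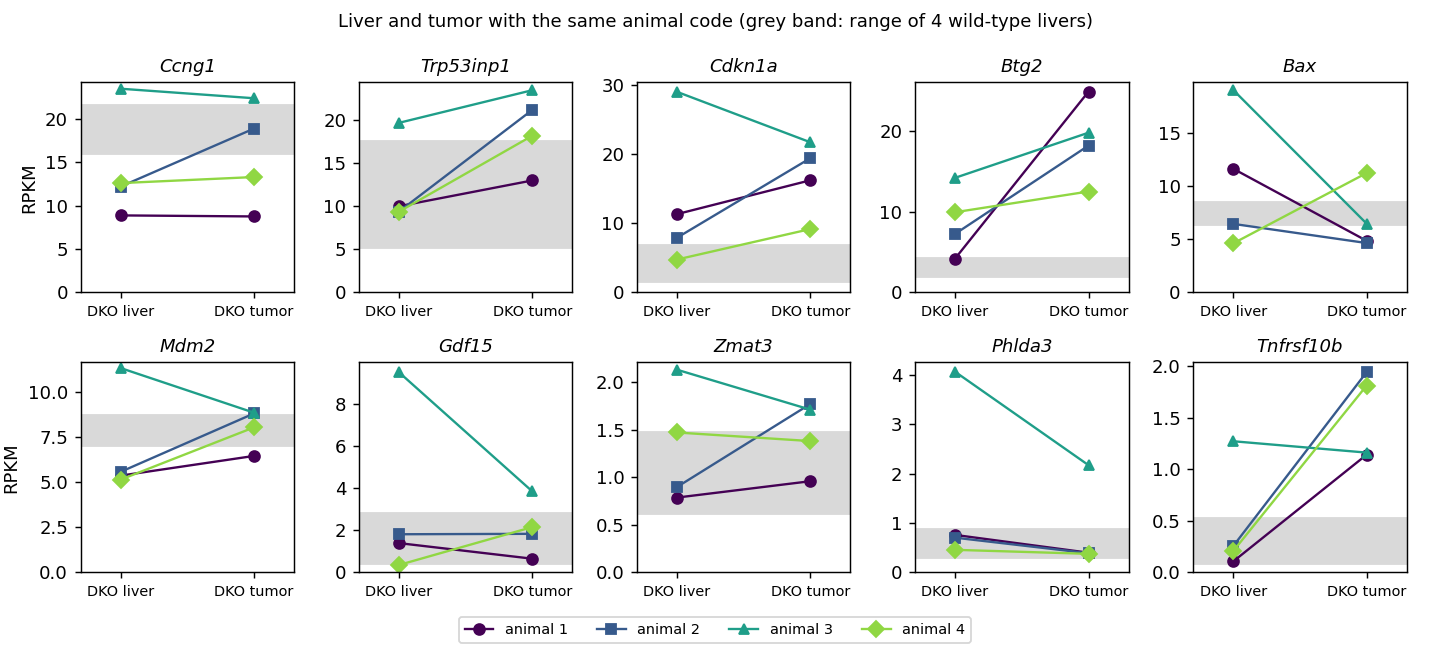
RPKM of the 10 genes in liver and tumor of each of the 4 DKO animals, joined by a line per animal, with a grey band for the range of the 4 wild-type livers. Btg2 and Trp53inp1 lines go up in 4 of 4 animals, Phlda3 lines go down in 4 of 4, and the liver of animal 3 is the highest liver in every panel.

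A two-sided exact permutation test over the 70 splits of 4 against 4 libraries gave p = 0.0286, the smallest it can give, for Cdkn1a, Btg2 and Tnfrsf10b in tumors against wild-type livers. Any gene whose groups do not overlap reaches this value, so it restates the lack of overlap given above. Of all genes tested, 11.9% did not overlap in that comparison, in either direction. Over the 30 tests of 10 genes in 3 comparisons, the smallest adjusted exact p was 0.285. An adjusted value below 0.05 would need many of the 30 tests to reach the smallest p. The adjusted test could therefore hardly pass, and no conclusion is drawn from it.

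DKO liver 3 was the highest of the 4 DKO livers for 10 of 10 genes, beside 58.1% of all genes tested, and the highest of all 12 libraries for 7 of 10, beside 29.5%. Its level relative to the mean of the other 3 DKO livers was 8.04 times for Gdf15, 6.72 for Tnfrsf10b, 6.36 for Phlda3 and 3.64 for Cdkn1a. For Bax, Mdm2, Ccng1, Trp53inp1, Zmat3 and Btg2 the ratio lay between 1.99 and 2.51. The median log2 difference of the 10 genes was 0.99, beside 0.29 over all genes tested. DKO liver 3 was also the highest DKO liver for 9 of 10 stellate cell and fibroblast markers and 8 of 9 lymphocyte markers. The same held for 4 of 4 neutrophil markers, 7 of 7 cholangiocyte markers and 12 of 13 mitotic genes. It held for 1 of 10 hepatocyte, 1 of 10 macrophage and 5 of 10 endothelial markers. It held for 7 of 11 immediate early, 7 of 12 integrated stress response and 8 of 15 clock genes. Trp53 itself was also highest in DKO liver 3, at 16.6 RPKM against 6.98 to 10.6 in the other DKO livers. Of the 15 tested genes of p53 and its regulators, Trp53 included, 7 were highest there among DKO livers, beside 58.1%. DKO liver 3 was the highest of all 12 libraries for 3 of the 15, beside 29.5%. Tumor 3 was the highest tumor for 6 of 10 genes, beside 40.2% of all genes. Wild-type liver 2 was the highest wild-type liver for 7 of 10, beside 27.6%. The markers of neutrophils, cholangiocytes and stellate cells given above were high in the same libraries of animal 3, and their part in these levels was not tested. This library was singled out after its values were seen.

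With the liver and tumor of animal 3 left out, the 3 tumor rises remained, with Btg2 at 2.29 (limma adjusted p = 0.00269), Cdkn1a at 1.99 (0.0257) and Tnfrsf10b at 1.01 (0.00675). Of these, Tnfrsf10b was tested in that fit only because of the tumors. The DKO liver differences were then 1.15 for Cdkn1a and 1.01 for Btg2, and 0 of the 10 genes passed. Within the libraries tagged L03, 4 tumors against wild-type livers 3 and 4, Btg2 (2.32, limma adjusted p = 0.0208) and Cdkn1a (2.40, limma adjusted p = 0.0309) rose, while Tnfrsf10b was 0.92 higher without passing (limma adjusted p = 0.198). With the tag as a covariate over all 12 libraries none of the 3 passed, with limma adjusted p-values of 0.0781, 0.234 and 0.30 at differences of 2.32, 2.40 and 0.92. Within L02, 4 DKO livers against wild-type livers 1 and 2, 0 of the tested members passed, with Cdkn1a at 1.34 and Btg2 at 1.26. Cdkn1a and Tnfrsf10b lay close to the threshold, and each kept its call in 4 of the 12 fits without 1 library. For Cdkn1a the fits that lost it left out wild-type liver 1, 3 or 4, DKO liver 1 or 2, or tumor 1, 2 or 3. For Tnfrsf10b they left out any wild-type liver, DKO liver 2, or tumor 1, 2 or 4.

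A further 28 p53 target genes were examined, of which 26 were tested and Trp73 and Sfn were too low. None passed with limma in any of the 3 comparisons, where 4, 3 and 1 of the 26 had an unadjusted p below 0.05, beside 19.2%, 12.4% and 16.1% of all genes, and voom called 0. Their median differences were 0.01, 0.04 and -0.03 in tumors against wild type, DKO livers against wild type and tumors against DKO livers. The most abundant were Ei24, an endoplasmic reticulum protein of autophagy, and Perp, a desmosomal membrane protein. Ei24 had 84.3 ± 7.25 RPKM (wild type), 80.8 ± 19.3 (DKO liver) and 63.9 ± 9.74 (tumor; SD, n = 4). Perp had 58.7 ± 4.16, 46.9 ± 8.09 and 46.0 ± 13.5 in the same order. DKO liver 3 was the highest of the 12 libraries for 13 of these 26 genes, beside 29.5% of all genes. It was the highest of the 4 DKO livers for 18 of the 26, beside 58.1%. Plk2 and Eda2r were picked after their values were seen. Plk2, a polo-like kinase, had 12.1 RPKM in DKO liver 3 and 7.89 in tumor 3, against 1.31 to 5.27 in the other 10 libraries. Eda2r, a receptor of the tumor necrosis factor family, had 1.67 RPKM in DKO liver 3, 1.52 in wild-type liver 2 and 1.01 in tumor 3, against 0.114 to 0.569 elsewhere.

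Of p53 and its regulators, 15 of 16 listed genes were found and tested, and none passed with limma in any comparison. At an unadjusted p below 0.05 there were 0, 2 and 1 of 15, beside the same shares of all genes, and voom called 0. Their median differences were 0.11, 0.06 and 0.05. Trp53, which encodes p53, had 6.98 ± 2.01 RPKM (wild type), 10.8 ± 4.14 (DKO liver) and 8.93 ± 1.06 (tumor; SD, n = 4). Its difference from wild type was 0.34 in tumors (limma adjusted p = 0.453) and 0.53 in DKO livers (limma adjusted p = 0.387). Usp7, a deubiquitinase of MDM2 and p53, had the highest mean of the list over the 12 libraries, 9.99 RPKM, although in DKO livers Trp53 was higher. These are transcript levels, and p53 is controlled largely through the stability of its protein, which was not measured.

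Genes that respond to growth and stress signals were set beside the p53 targets because Btg2 belongs to both kinds. Of 11 immediate early genes tested, 2 rose in tumors against wild-type livers and 0 fell, beside 1.23% and 0.67% of all genes. Of the 11, 7 had positive differences in tumors (median 0.36) and 10 in DKO livers (median 0.46), both against wild type. Over all genes 47.1% and 60.5% were positive, with medians of -0.02 and 0.08. Fos, a subunit of AP-1, went from 0.411 ± 0.145 to 1.82 ± 0.405 RPKM (SD, n = 4; log2 difference 1.0, limma adjusted p = 0.0257). Atf3, a stress-induced repressor that p53 also induces, went from 1.3 ± 0.881 to 9.55 ± 6.31 (2.07, limma adjusted p = 0.0382). With voom, Fos passed (adjusted p = 0.0323) and Atf3 did not (adjusted p = 0.0745). Of 13 mitotic genes tested, 13 had positive differences in tumors, beside 47.1% of all genes, with a median of 0.77 beside -0.02 for all genes. All 13 were positive in DKO livers against wild type as well, beside 60.5% of all genes, with a median of 0.44 beside 0.08. Of the 13, 1 rose in tumors, Kif2c, beside 1.23% of all genes. Kif2c, a microtubule-depolymerizing kinesin, went from 0.194 ± 0.106 to 0.846 ± 0.266 RPKM (0.62, limma adjusted p = 0.0462). Outside the tumors it reached 0.5 RPKM in DKO liver 3 only. Some others of the 13 also reached 0.5 RPKM in fewer than 4 libraries outside the tumors. Such genes were tested only because of their tumor values, and their place in these counts is no support for them. None of 12 integrated stress response genes and none of 15 clock genes passed with limma in any comparison, with tumor medians of 0.15 and -0.75. In tumors against wild type, limma gave an unadjusted p below 0.05 for 3 of the 12 and 11 of the 15, beside 19.2% of all genes, and voom called 0. The clock gene Arntl was 9.24 to 11.2 RPKM in both tissues of DKO animals 1 and 2 and 0.484 to 2.26 in all other libraries. With the Arntl level as a covariate, Cdkn1a missed the threshold (2.04, limma adjusted p = 0.104) and Btg2 (0.0162) and Tnfrsf10b (0.0497) passed.

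**Figure D4:**
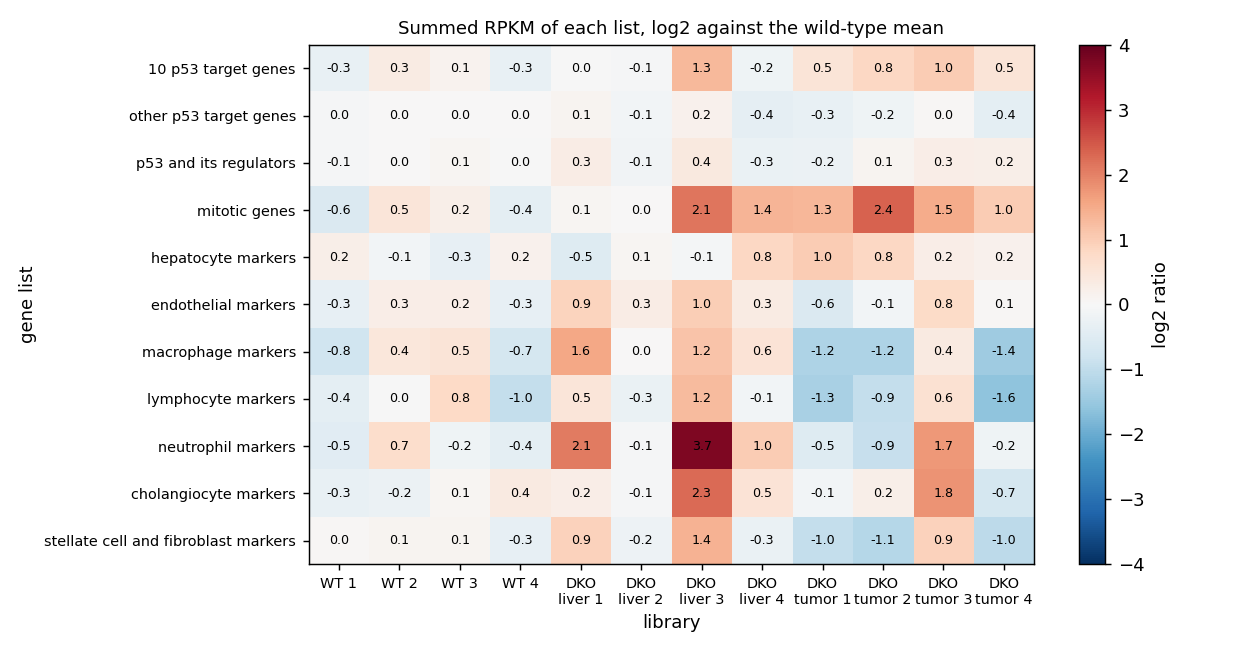
Summed RPKM of each gene list in each library, as the log2 ratio to the mean of the wild-type livers. Columns are the 12 libraries and rows the lists; DKO liver 3 and tumor 3 have the highest cholangiocyte, neutrophil, lymphocyte and stellate sums of their own groups.

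For each of the 3 genes that rose, the genes most like it over the 12 libraries were found by Pearson's r of log2(RPKM + 1), as a description with no test. For Cdkn1a they were Rab3d (0.95), Slc35c1 (0.94) and Smox (0.93). Cdh1 (E-cadherin), Nid1 (a basement membrane protein) and Etl4 were most like Btg2, each at 0.96. Cdh1 had group means of 4.26, 12.1 and 32.3 RPKM, and Nid1 of 4.02, 12.1 and 36.7, in wild-type livers, DKO livers and tumors. For Tnfrsf10b they were Trip13 (0.96), a checkpoint ATPase, C630004H02Rik (now Hid1, 0.95) and Vangl1 (0.95). The points share their libraries, depth and group means, and tumors and wild-type livers lie at opposite ends of them.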

How the data were processed

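The deposited values are RPKM, which the authors computed per RefSeq transcript (21247 rows per library, mm9). The submitters' processing notes name BWA and mm9 without versions, and the labels' protocols name poly(A) selection and SOLiD libraries. Counting tool, filters and whether coordinates start at 0 or 1 are not given in the sources used here. RPKM times exon length gave whole reads for at least 99.99% of values (tolerance 0.05 of a read), from which depth and reads follow.

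Each symbol was represented by its longest transcript. Genes that reached 0.5 RPKM in 4 or more libraries were tested with limma 3.58.1 in R 4.3.3 on log2(RPKM + 1), with a mean per group over 12 libraries, an intensity trend and robust shrinkage, two-sided, with adjustment over 11351 genes. The offset understates changes of low genes. Exact permutation tests and plots used Python 3.11.15, scipy 1.17.1 and matplotlib 3.10.9. The fit was tested on simulated data.

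The p53 target genes and the 13 lists beside them were chosen with earlier results of these data known. Eligible to be named beside them were list genes that passed, the 2 most abundant of a list with none, and the 3 genes most like each gene that rose, and not all are named. Arntl is named as a covariate, and Plk2 and Eda2r were picked after their values were seen. Same-numbered DKO liver and tumor share an animal code, and their deviations from group means correlated at r = 0.117, 0.347, 0.368 and 0.003 across genes. DKO livers and tumors of unlike number gave -0.25 to 0.154, and wild-type livers against DKO livers gave -0.288 to 0.357. The values of animals 1 and 4 thus lay within the range of unlike numbers, and the pairing rests on the codes. Wild-type numbers pair with no DKO animal. Alternatives covered scaling, offset, filter, tag, replicate block, voom on recovered reads, transcript choice, Arntl and left-out libraries. Sequences are from RefSeq.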

Additional observations from a re-analysis of the deposited data

Results flagged for a closer look

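Groups of 4 libraries were searched for a library whose gap to its nearest neighbour exceeded Dixon's 95% critical value for the ratio of the gap to the group's range. Of 30 groups (10 genes in 3 groups), 7 held one. Chance flags about 1 in 20 groups if values are normally distributed, and the genes of a library are not independent. The ratio was taken on RPKM without a log, where that rate need not hold. The share over all genes was counted for DKO liver 3 only. Of the 7, 5 were in DKO liver 3. Mdm2 was 11.3 RPKM there, with 5.56 as the next DKO liver. Trp53inp1 was 19.7 against 10, and Tnfrsf10b was 1.27 against 0.255. Gdf15 was 9.51 against 1.81, and Phlda3 was 4.06 against 0.758. Over all genes tested, DKO liver 3 was set apart upward in the same way for 420 of 11351, or 3.7%. Phlda3 was also apart in tumor 3, at 2.17 RPKM against 0.398 in the next tumor. Gdf15 was apart in wild-type liver 2, at 2.83 RPKM against 0.653.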

How the results depend on the processing

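In tumors against wild-type livers, where 3 of the 10 genes passed, the count was 1 with no filter, 1 with voom, 0 with the tag as a covariate, 0 without DKO animals 1 and 2, and 1 to 3 leaving out each library in turn. With an offset of 0.1, or a filter of 1 RPKM in 4 libraries, it was 2, without Tnfrsf10b. Tumors against DKO livers had 0, but 1 (Tnfrsf10b, tested there only because of the tumors) without DKO animal 3 and 0 to 1 leaving out each library. DKO livers against wild-type livers had 0 in every alternative run. With the replicate block, 3 passed in tumors against wild type (Btg2, Cdkn1a and Tnfrsf10b) and 0 in tumors against DKO livers, so the block changed no call. Animals are paired only between tumor and DKO liver, and against wild type the block joins unrelated animals that share a number. The differences that changed sign had not passed. Against wild type in tumors, Mdm2 was -0.04 with the tag as a covariate, -0.04 within L03, -0.01 without DKO animal 3 and -0.0075 to 0.13 leaving out each library; Phlda3 was -0.16 without animal 3 (-0.16 to 0.24 leaving out each library), and Bax was 0.07 with Arntl and 0.20 without animals 1 and 2. In DKO livers without animal 3, Trp53inp1 was -0.11 (-0.17 to 0.36 leaving out each library), Tnfrsf10b -0.13 (-0.13 to 0.22) and Bax -0.04 (-0.04 to 0.57), and Tnfrsf10b was -0.0047 with quantile normalization. In tumors against DKO livers, Gdf15 was 0.02 with an offset of 0.1, 0.43 with the tag, 0.05 without animals 1 and 2, 0.23 without animal 3 and -0.51 to 0.48 leaving out each library. Zmat3 was -0.13 without animals 1 and 2 (-0.0092 to 0.26), Phlda3 reached 0.06 (from -0.64) and Ccng1 -0.04 (to 0.40). The cause was not tested. Over all genes, 216 passed in tumors against wild type, from 3 with the tag to 598 with median-of-ratios scaling. That scaling moved the median over all genes between tumors and DKO livers from -0.09 to 0.02 and turned no gene of the 10. Tnfrsf10b, Gdf15 and Phlda3 had under 10 reads in some libraries, which limits their precision.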

Other observations

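The summed level of 13 tested and 2 low mitotic genes was set beside Cdkn1a, library by library. Tumor 2 had the highest mitotic sum, 39.1 RPKM, beside 19.4 RPKM of Cdkn1a, and DKO liver 3 had 33.0 beside 29.0. Tumor 3 had 21.1 beside 21.7, and tumor 1 had 19 beside 16.2. DKO liver 4 had a mitotic sum of 19.2, above the 5.02 to 10.5 of wild-type livers, beside 4.73 RPKM of Cdkn1a. DKO liver 1 had 8.05, within the wild-type range, beside 11.3 RPKM of Cdkn1a. These values were picked after they were seen and no relation between them was tested.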
